A study of Homo sapiens with 12 samples.

Results

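The 9 genes described here are *IRF1*, *IRF2*, *IRF3*, *IRF4*, *IRF5*, *IRF7*, *IRF8*, *IRF9* and *BATF2*, taken by name from the 45416 genes of the deposited table. They were followed over 12 RNA-seq libraries of U251, an established human glioblastoma cell line, with 2 libraries in each of 6 groups. The groups were an siRNA control (siNC) and 2 siRNAs targeting *PD-L1* (siPDL1-1 and siPDL1-2), each left unstimulated or stimulated with IFNγ at 100 U/ml for 24 h, from 48 h after transfection. The labels give the genotype as wild type, every group carried an siRNA, and all comparisons with siNC share the same siNC libraries. The libraries held 17101069 to 55657393 reads on genes. The values are normalized CPM, which are reads on a gene scaled to library size and to a normalization factor of the library. They equal CPM computed with the TMM factors of edgeR, which ran from 0.959 to 1.036. Plain CPM, used below as an alternative, leaves these factors out.

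Interferon regulatory factors are transcription factors with a shared DNA-binding domain that recognizes GAAA repeats in the promoters of interferon-responsive genes. IFNγ acts through its receptor and the kinases JAK1 and JAK2, which lead to transcription from GAS elements and so to *IRF1*, and IRF1 in turn activates antigen presentation genes and further interferon-responsive genes. IRF2 binds the same elements and is best known as an antagonist of IRF1. IRF9 is the DNA-binding part of ISGF3, the complex that answers type I and type III interferons at ISRE elements. IRF3, IRF5 and IRF7 are held in the cytoplasm until nucleic acid sensors or Toll-like receptors lead to their phosphorylation, so mRNA levels alone do not give their activity, and IRF4 and IRF8 belong mainly to lymphoid and myeloid cells. BATF2 is not an interferon regulatory factor but a basic leucine zipper protein of the AP-1 family that is induced by interferon and can partner with IRF1.

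Of 7 glioblastoma and astroglial markers, those of mesenchymal and stem-like cells were high and the astrocyte gene *GFAP* was low. *VIM* lay between 3139 and 3968 CPM, *CD44* between 421 and 669 CPM and *SOX2* between 108 and 213 CPM, while *GFAP* lay between 1.92 and 7.25 CPM. The summed level of 9 leukocyte and microglial markers was 0.826 to 1.97 CPM, with *MS4A1* at 0 reads in every library and the pan-leukocyte gene *PTPRC* at no more than 0.176 CPM. The highest of the 9 were *CSF1R*, at 0.318 to 1.13 CPM, and *CD14*, at 0 to 0.667 CPM. *PD-L1*, listed as *CD274*, was 4.60 and 4.91 CPM in unstimulated siNC libraries, 2.67 and 2.73 CPM with siPDL1-1, and 3.57 and 3.45 CPM with siPDL1-2. The stimulated libraries held 71.2 and 76.0 CPM under siNC, 60.9 and 66.7 CPM under siPDL1-1, and 37.5 and 35.0 CPM under siPDL1-2, so the siPDL1-1 libraries were below siNC by less than the siPDL1-2 libraries were.

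The promoters of *IRF1* and *IRF9* are shown first because both genes rose with IFNγ and the transcript starts of their promoter windows lie within 4 bases of the deposited gene starts. RefSeq promoter windows of GRCh38.p14, from 250 bases before to 50 bases after a transcript start, were found for 6 of the 9 genes (*IRF1*, *IRF4*, *IRF5*, *IRF8*, *IRF9* and *BATF2*, with 10 windows in all). Each of 3 motifs was searched on both strands, with N for any base. They were the ISRE of interferon regulatory factors (GAAA, any 2 bases, GAAA), the GAS element of IFNγ-responsive promoters (TTCNNNGAA) and the AP-1 element of basic leucine zipper proteins (TGANTCA). Of 35116 promoter windows in the RefSeq table, 3.57% held the ISRE letters, 7.66% the GAS letters and 7.71% the AP-1 letters. The windows of *IRF1* and *IRF9* each held 1 GAS match, at bases 124 to 116 before the *IRF1* start and at bases 63 to 55 before the *IRF9* start, and the GAS match is in capitals in both sequences. The *IRF1* window is chr5:132490724-132491023 on the minus strand, and the *IRF9* window is chr14:24161015-24161314 on the plus strand.
IRF1: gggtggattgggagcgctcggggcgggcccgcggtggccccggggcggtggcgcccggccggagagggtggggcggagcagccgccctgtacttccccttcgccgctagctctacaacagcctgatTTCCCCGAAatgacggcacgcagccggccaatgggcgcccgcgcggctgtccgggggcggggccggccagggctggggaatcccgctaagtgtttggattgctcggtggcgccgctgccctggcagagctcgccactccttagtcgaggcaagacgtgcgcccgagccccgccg
IRF9: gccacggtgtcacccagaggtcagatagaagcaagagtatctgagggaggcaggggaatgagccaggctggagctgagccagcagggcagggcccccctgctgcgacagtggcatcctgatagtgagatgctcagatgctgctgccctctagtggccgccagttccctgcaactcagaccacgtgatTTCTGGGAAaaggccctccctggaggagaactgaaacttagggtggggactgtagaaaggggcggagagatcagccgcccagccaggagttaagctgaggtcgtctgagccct
No window of *IRF4*, *IRF5*, *IRF8* or *BATF2* held any of the 3 motifs. The transcript start of the *IRF4* window lies at the deposited gene start, whereas that of the *BATF2* window lies 6741 bases inside the deposited gene. The transcript starts of the *IRF8* windows lie 3668 and 3853 bases inside, and those of the *IRF5* windows 470 to 3811 bases inside. The windows of *BATF2*, *IRF8* and *IRF5* therefore do not cover the outermost starts.

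IFNγ raised *IRF1*, *IRF2*, *IRF9* and *BATF2* in all 3 siRNA groups, and it raised *IRF3* past the thresholds with siPDL1-2. Genes were called when limma's moderated test on log2(CPM + 1) gave FDR < 0.01 over all genes tested and the fold change exceeded 1.5. The pseudocount of 1 makes differences smaller for genes near or below 1 CPM. Counts at an unadjusted p under 0.05 (limma) are given below without the share of all genes, which was not computed. They therefore cannot be read against a background. Of the 9 genes, 7 passed the filter on low reads and were tested, and *IRF4* and *IRF8* did not. IFNγ raised 4 of the 7 in siNC cells, where it raised 6.67% of all genes tested (8.12% were called in either direction). It raised 4 of the 7 in siPDL1-1 cells, where the shares of all genes were 5.58% raised and 6.87% called, and 5 of the 7 in siPDL1-2 cells, where they were 3.62% and 5.27%. The median log2 difference of the 7 genes was 1.42, 1.47 and 0.90 in siNC, siPDL1-1 and siPDL1-2 cells, against medians of 0.0012, -0.016 and -0.015 for all genes.

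**Figure D1:**
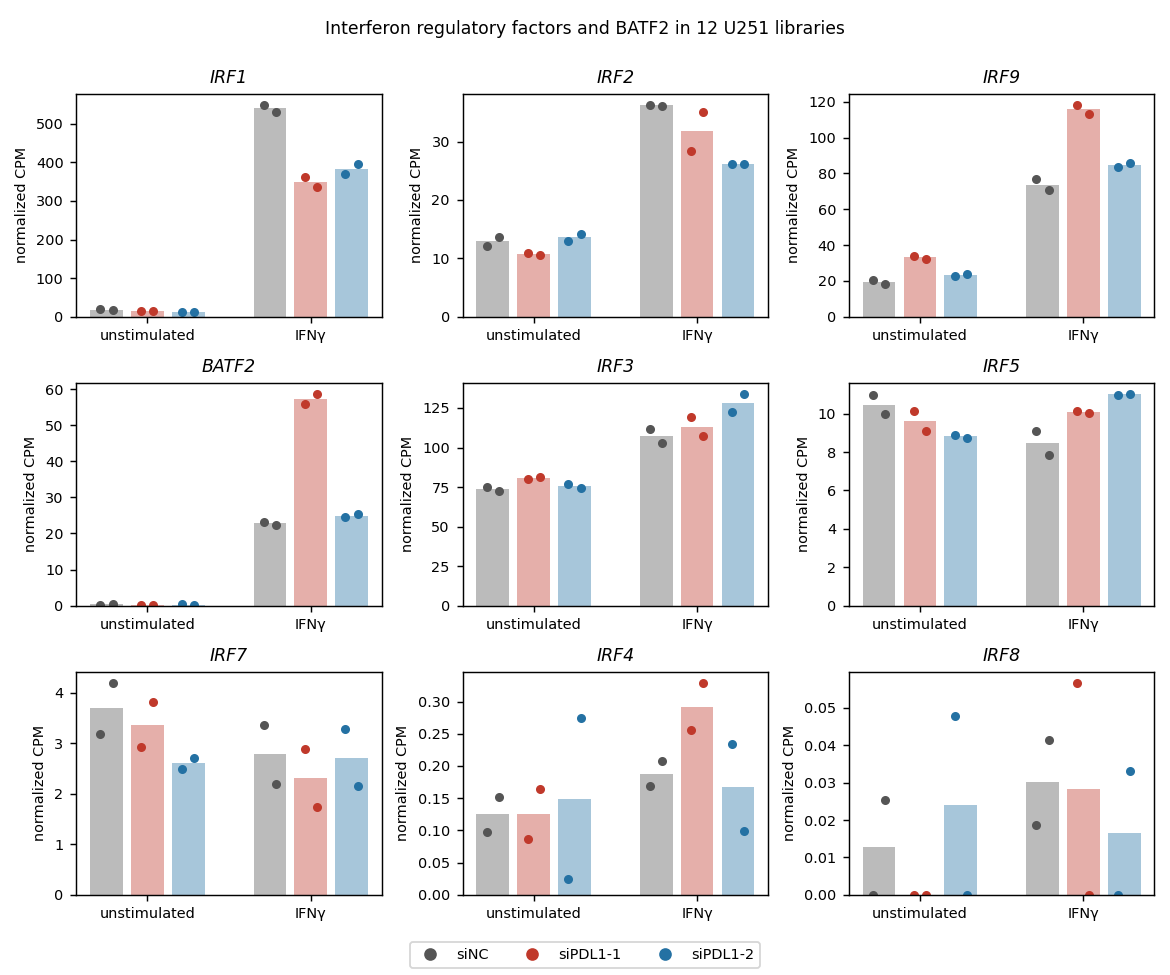
Normalized CPM of the 9 genes in 12 U251 libraries, with each panel on its own linear axis from 0. Points are single libraries, bars are means of 2 libraries, and colours mark the siRNA. *IRF1*, *IRF2*, *IRF9*, *BATF2* and *IRF3* lie higher in every IFNγ library than in any unstimulated library, whereas *IRF5* and *IRF7* do not separate, and *IRF4* and *IRF8* stay at or below 0.329 CPM.

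*IRF1* (ENSG00000125347, GRCh38 chr5:132481609-132490777, minus strand) was the member with the highest level after stimulation. In siNC cells it rose from 19.5 and 16.2 CPM to 549 and 531 CPM. With siPDL1-1 the libraries were at 14.6 and 15.7 CPM unstimulated and 361 and 337 CPM after IFNγ, and with siPDL1-2 they were at 12.6 and 12.5 CPM and at 369 and 396 CPM. Stimulated and unstimulated libraries were far apart in each siRNA group, and every siPDL1 library lay below both siNC libraries of the same stimulation. In bulk RNA, fewer expressing cells and less RNA per cell cannot be told apart. The log2 differences with IFNγ were 4.85 in siNC, 4.44 in siPDL1-1 and 4.83 in siPDL1-2 (standard error 0.071 each, limma FDR = 2.62e-16, 5.10e-16 and 3.08e-16).

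After IFNγ, *IRF1* was 349 ± 16.8 CPM with siPDL1-1 against 540 ± 13.3 CPM with siNC (mean ± SD, n = 2). That is a 1.55-fold lower level, and the log2 difference of -0.63 was called (standard error 0.058, limma FDR = 2.83e-05). Leaving out the second stimulated siPDL1-1 library brought it to -0.58 (FDR = 2.13e-04), below the fold change threshold. The siPDL1-2 level was 383 ± 18.9 CPM (mean ± SD, n = 2). Its log2 difference of -0.50 passed the FDR but not the fold change threshold (1.41-fold lower, limma FDR = 3.82e-04). The difference between the siRNAs was -0.13 with a 95% interval of -0.26 to -0.0028 (limma FDR = 0.182). In unstimulated cells the log2 differences from siNC were -0.22 with siPDL1-1 (limma FDR = 0.0299) and -0.48 with siPDL1-2 (limma FDR = 1.07e-04, 1.39-fold), and neither was called.

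Part of the reads on *IRF1* cannot be assigned by strand, because the authors counted both strands and *IRF1* overlaps *IRF1-AS1* over 7094 bases and *AC116366.2* along its whole length on the opposite strand. After IFNγ, the *IRF1-AS1* level (mean ± SD, n = 2) was 31.9 ± 1.89 CPM for siNC. It was 44.9 ± 4.48 CPM for siPDL1-1 and 23.9 ± 1.71 CPM for siPDL1-2. The antisense gene was therefore highest with siPDL1-1, where *IRF1* was lowest, and its part in the *IRF1* values was not tested.

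*IRF2* (ENSG00000168310, chr4:184387729-184474550, minus strand) rose in every siRNA group and least with siPDL1-2. It was 12.2 and 13.7 CPM in unstimulated siNC libraries and 36.3 and 36.2 CPM after IFNγ. With siPDL1-1 it was 10.9 and 10.6 CPM, then 28.5 and 35.0 CPM. With siPDL1-2 it was 13.0 and 14.2 CPM, then 26.2 and 26.1 CPM. The stimulated siPDL1-2 libraries were the lowest of the stimulated libraries, while the unstimulated siPDL1-2 libraries overlapped those of siNC. The log2 differences with IFNγ were 1.42, 1.47 and 0.90 in siNC, siPDL1-1 and siPDL1-2 cells (standard error 0.089 each, limma FDR = 7.34e-09, 4.22e-09 and 2.03e-06). The IFNγ effect was 0.52 lower on the log2 scale in siPDL1-2 than in siNC cells, which is a log2 difference of -0.52 (standard error 0.126, limma FDR = 0.00607), and 0.57 higher in siPDL1-1 than in siPDL1-2 cells (limma FDR = 0.00490). Neither passed the fold change threshold in limma, and the second was called on recovered reads by edgeR and by DESeq2. After IFNγ *IRF2* was 1.37-fold lower with siPDL1-2 than with siNC (log2 difference -0.46, standard error 0.093, limma FDR = 0.00648), again short of the fold change threshold.

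**Figure D2:**
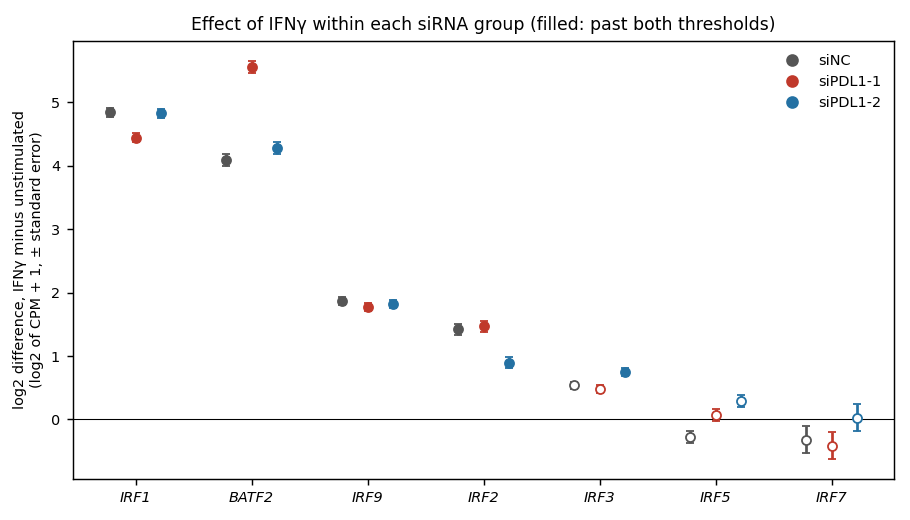
Log2 difference between IFNγ-stimulated and unstimulated cells for the 7 tested genes within each siRNA group, on log2(CPM + 1), with standard errors and n = 2 libraries per group. Filled points passed both thresholds. *IRF1* lies between 4.44 and 4.85, *BATF2* stands highest with siPDL1-1 at 5.56, and *IRF5* and *IRF7* lie on either side of 0.

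*IRF9* (ENSG00000213928, chr14:24161265-24166565, plus strand), the DNA-binding subunit of ISGF3, was raised by IFNγ and, separately, by siPDL1-1. It was 20.4 and 18.4 CPM in unstimulated siNC libraries and 76.7 and 70.6 CPM after IFNγ. With siPDL1-1 it was already 34.0 and 32.1 CPM without stimulation and reached 118 and 113 CPM. With siPDL1-2 it was 23.0 and 23.7 CPM, then 83.5 and 85.7 CPM. The siPDL1-1 libraries were the highest of each stimulation, and those of siPDL1-2 lay between them and siNC with no overlap.

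The log2 differences of *IRF9* with IFNγ were 1.87, 1.78 and 1.82 in siNC, siPDL1-1 and siPDL1-2 cells (standard error 0.062 each, limma FDR = 2.56e-12, 3.60e-12 and 4.39e-12). The IFNγ effect in siPDL1-1 differed from that in siNC by -0.10, with a 95% interval of -0.28 to 0.09. Against siNC, siPDL1-1 raised *IRF9* 1.67-fold in unstimulated cells (log2 difference 0.74, limma FDR = 6.04e-07) and 1.56-fold after IFNγ (log2 difference 0.65, standard error 0.064, limma FDR = 4.65e-05). With siPDL1-2 the log2 differences from siNC were 0.26 unstimulated (limma FDR = 0.00420) and 0.20 after IFNγ (limma FDR = 0.0487), and neither was called. Between the siRNAs the log2 difference was 0.49 unstimulated (limma FDR = 3.92e-05) and 0.45 after IFNγ (limma FDR = 0.00131), both short of 1.5-fold.

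The summed leukocyte and microglial markers were 1.58 and 1.97 CPM in the unstimulated siPDL1-1 libraries, above the 0.881 to 1.32 CPM of the other unstimulated libraries, and their part in the *IRF9* difference was not tested. After IFNγ the same sum was 0.847 and 1.25 CPM under siPDL1-1 and 0.843 and 1.25 CPM under siNC, which is nearly the same range. *IRF9* shares 5188 bases with *AL136295.5* on the same strand, whose mean level was 6.01 CPM in all 12 libraries and that of *IRF9* 58.3 CPM.

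*BATF2* (ENSG00000168062, chr11:64987945-64997018, minus strand) went from a few reads per library to over 20 CPM with IFNγ, and siPDL1-1 raised its induced level further. The unstimulated libraries held 6 to 20 reads, that is 0.294 and 0.506 CPM with siNC, 0.261 and 0.212 CPM with siPDL1-1, and 0.359 and 0.305 CPM with siPDL1-2. The stimulated libraries held 23.3 and 22.3 CPM under siNC, 55.9 and 58.7 CPM under siPDL1-1, and 24.5 and 25.3 CPM under siPDL1-2. The 2 stimulated siPDL1-1 libraries stood apart from the other stimulated libraries, which lay between 22.3 and 25.3 CPM.

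The log2 differences of *BATF2* with IFNγ were 4.09 in siNC, 5.56 in siPDL1-1 and 4.28 in siPDL1-2 cells (standard error 0.10 each, limma FDR = 5.00e-14, 7.78e-16 and 3.07e-14). The pseudocount holds these down, and DESeq2 gave 5.69, 7.94 and 6.22 on the recovered reads. After IFNγ, *BATF2* was 57.3 ± 1.99 CPM with siPDL1-1 and 22.8 ± 0.715 CPM with siNC (mean ± SD, n = 2), a 2.45-fold difference (log2 difference 1.29, standard error 0.071, limma FDR = 5.58e-07). It was 2.25-fold higher with siPDL1-1 than with siPDL1-2 (log2 difference 1.17, limma FDR = 1.65e-06). Between siPDL1-2 and siNC the log2 difference was 0.12, with a 95% interval of -0.03 to 0.28. In unstimulated cells it was -0.18 with siPDL1-1 (95% interval -0.39 to 0.04) and -0.07 with siPDL1-2 (95% interval -0.28 to 0.15), at a depth of 6 to 20 reads.

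*BATF2* was the only tested member whose IFNγ effect differed between siRNAs past both thresholds in limma. The effect was larger in siPDL1-1 than in siNC cells by 1.47 on the log2 scale (standard error 0.141, limma FDR = 9.04e-06), a comparison in which 0.968% of all genes were called. It was larger in siPDL1-1 than in siPDL1-2 cells by 1.28 (limma FDR = 2.68e-05), where 4.87% of all genes were called. Between siPDL1-2 and siNC cells, where 7.62% of all genes were called, limma called 0 of the 7 members, 3 had an unadjusted p under 0.05, and edgeR and DESeq2 each called 1, *IRF5*.

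**Figure D3:**
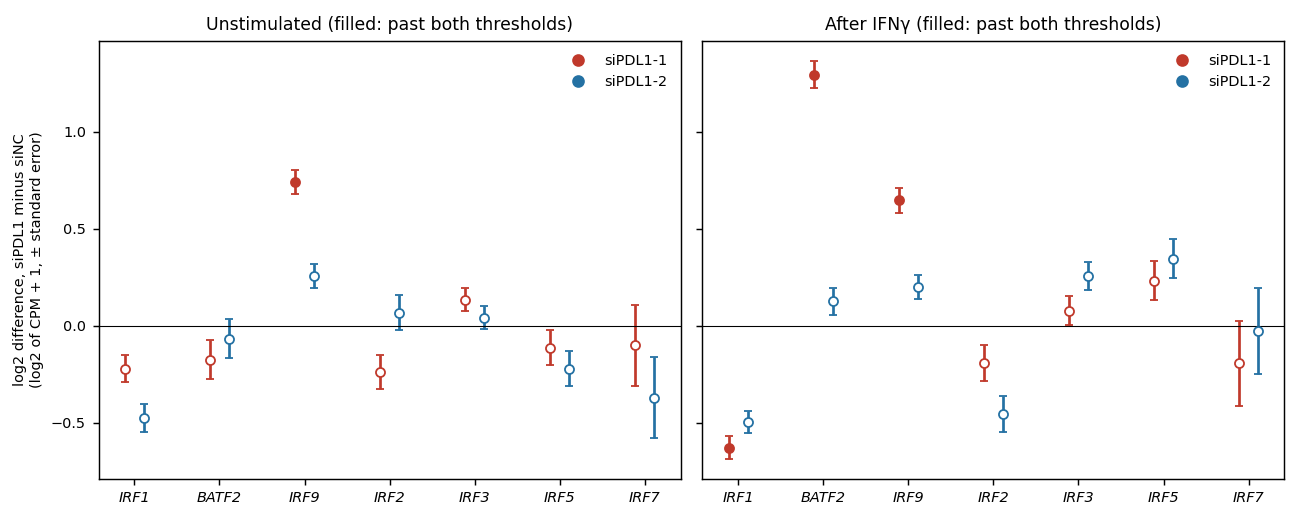
Log2 difference between each siRNA targeting *PD-L1* and siNC for the 7 tested genes, unstimulated on the left and after IFNγ on the right, on log2(CPM + 1) with standard errors and n = 2 libraries per group. Filled points passed both thresholds, which were *IRF9* with siPDL1-1 in both panels and *IRF1* and *BATF2* with siPDL1-1 after IFNγ.

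Counted by comparison, siPDL1-1 changed 3 of the 7 tested members after IFNγ (*BATF2* and *IRF9* up, *IRF1* down) when 5.52% of all genes were called. With siPDL1-2 limma, edgeR and DESeq2 each called 0 of 7 after IFNγ, where 2.91% of all genes were called. Of the 7, 5 had an unadjusted p under 0.05, a limit for which the share of all genes was not computed. Between the siRNAs after IFNγ, *BATF2* was the 1 member called, against 2.11% of all genes. In unstimulated cells *IRF9* was the 1 member called for siPDL1-1 (4.00% of all genes). For siPDL1-2 against siNC (6.17% of all genes) and for siPDL1-1 against siPDL1-2 (4.35% of all genes), limma, edgeR and DESeq2 each called 0 members, and 3 had an unadjusted p under 0.05 in each comparison. There 5107 and 4338 of 17982 genes passed FDR < 0.01 alone in limma.

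*IRF3* (ENSG00000126456, chr19:49659569-49665875, minus strand), the main inducer of *IFNB1* once phosphorylated, was well expressed without IFNγ and moved modestly with it. It was 74.8 and 72.5 CPM in unstimulated siNC libraries and 111 and 103 CPM after IFNγ. With siPDL1-1 it was 80.4 and 81.3 CPM, then 119 and 108 CPM, and with siPDL1-2 it was 77.0 and 74.6 CPM, then 123 and 134 CPM. All stimulated libraries lay above all unstimulated ones, and the stimulated siNC and siPDL1-1 libraries overlapped. The log2 difference with IFNγ was 0.75 in siPDL1-2 cells and was called (1.68-fold, standard error 0.059, limma FDR = 1.29e-07). In siNC cells it was 0.54 (1.45-fold, limma FDR = 3.98e-06) and in siPDL1-1 cells 0.48 (1.39-fold, limma FDR = 1.39e-05), which passed the FDR but not the fold change threshold. The effect was 0.22 larger in siPDL1-2 than in siNC cells, with a 95% interval of 0.04 to 0.39 (limma FDR = 0.0644). *IRF3* overlaps *BCL2L12* over 734 bases on the opposite strand, and *BCL2L12* averaged 37.5 CPM over the 12 libraries.

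*IRF5* (ENSG00000128604, chr7:128937457-128950038, plus strand), which acts downstream of Toll-like receptors, stayed between 7.84 and 11.0 CPM. In siNC libraries it was 11.0 and 9.97 CPM unstimulated and 9.10 and 7.84 CPM after IFNγ. With siPDL1-1 it was 10.1 and 9.09 CPM, then 10.2 and 10.0 CPM, and with siPDL1-2 it was 8.91 and 8.73 CPM, then 11.0 and 11.0 CPM. The stimulated libraries were the lower ones with siNC and the higher ones with siPDL1-2. The log2 differences with IFNγ were -0.28 in siNC (limma FDR = 0.0248), 0.07 in siPDL1-1 (limma FDR = 0.623) and 0.29 in siPDL1-2 cells (limma FDR = 0.0268), none of them called. The IFNγ effects in siPDL1-2 and siNC cells differed by 0.57 (standard error 0.128, limma FDR = 0.00417, 1.48-fold), just under the fold change threshold, and this difference was called by edgeR, by DESeq2 and with a pseudocount of 0.1.

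*IRF7* (ENSG00000185507, chr11:612553-615983, minus strand), the factor that amplifies type I interferon production and is itself commonly induced by ISGF3, was low in every group. It was 3.18 and 4.20 CPM in unstimulated siNC libraries and 3.37 and 2.20 CPM after IFNγ. With siPDL1-1 it was 2.93 and 3.81 CPM, then 2.89 and 1.74 CPM, and with siPDL1-2 it was 2.49 and 2.72 CPM, then 3.28 and 2.15 CPM. The log2 differences with IFNγ were -0.32, -0.41 and 0.03 in siNC, siPDL1-1 and siPDL1-2 cells, with 95% intervals of -0.77 to 0.14, -0.87 to 0.04 and -0.43 to 0.48. The stimulated libraries overlapped the unstimulated ones with siNC and siPDL1-2 and lay just below them with siPDL1-1. After IFNγ the log2 difference between siPDL1-1 and siNC was -0.20, with a 95% interval of -0.69 to 0.30.

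*IRF4* (ENSG00000137265, chr6:391752-411443, plus strand) and *IRF8* (ENSG00000140968, chr16:85899162-85922606, plus strand), the lymphoid and myeloid members, were near the limit of detection. *IRF4* had 1 to 10 reads per library, which is 0.0240 to 0.329 CPM, and the highest group mean was 0.292 ± 0.0523 CPM in stimulated siPDL1-1 cells (mean ± SD, n = 2). *IRF8* had 0 to 2 reads per library and at most 0.0567 CPM. It was at 0 reads in 6 of the 12 libraries, where a count of 0 allows up to 3 reads, or 0.0706 to 0.176 CPM depending on the library, by counting error only. Neither gene was tested, and no IFNγ response of *IRF8* was detectable at this depth.

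Levels of different genes were compared per kilobase of the canonical transcript of GENCODE. In unstimulated siNC cells *IRF3* was the most abundant member at 46.2 CPM per kb, followed by *IRF9* at 11.9, *IRF2* at 5.73, *IRF1* at 5.03, *IRF5* at 3.61, *IRF7* at 1.92 and *BATF2* at 0.194 CPM per kb. After IFNγ *IRF1* came first at 152 CPM per kb, ahead of *IRF3* at 67.2, *IRF9* at 45.3, *IRF2* at 16.1, *BATF2* at 11.0, *IRF5* at 2.92 and *IRF7* at 1.45 CPM per kb. In stimulated siPDL1-1 cells *IRF9* at 71.1 and *IRF3* at 71.0 CPM per kb were level, and *BATF2* at 27.7 exceeded *IRF2* at 14.1 CPM per kb.

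The genes with the most similar patterns were found by Pearson's r of log2(CPM + 1) over the 12 libraries, among 3808 genes that averaged 1 CPM or more and had a standard deviation of at least 0.25. The points share their 6 groups and the IFNγ stimulation, so r is given as a description. *IRF1* was nearest to *IDO1*, *PSME2* and *GBP2* (r = 0.998 each). *BATF2* was nearest to *TAP2*, *XAF1* and *TRIM21* (0.998, 0.998 and 0.997), and *IRF9* to *EFNB1*, *HAPLN3* and *BST2* (0.997, 0.996 and 0.996). *IRF2* was nearest to *KIAA0040* (0.990), *SCML1* and *CD274* (0.988 each). *IRF3* was nearest to *CYB561* (0.979), *S100A16* and *CHD5* (0.977 each). The nearest genes were less alike for *IRF5*, with *ZFPM1* (0.869) and *ZNHIT2* (0.853) among them, and for *IRF7*, with *AC022400.5* (0.802), *DMBT1* (0.767) and *ARHGAP33* (0.765). Among the members, r was 0.969 for *IRF1* with *BATF2*, 0.966 for *IRF9* with *BATF2* and 0.965 for *IRF1* with *IRF2*, and -0.49 for *IRF7* with each of *IRF2*, *IRF9* and *BATF2*.

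The partners of IRF9 and IRF1 in the IFNγ pathway were read from a list of 12 receptors, kinases, STAT proteins and feedback inhibitors. IFNγ raised 6 of the 12 in each siRNA group. For this list and those below, the shares of all genes raised by IFNγ were 6.67%, 5.58% and 3.62% in siNC, siPDL1-1 and siPDL1-2 cells. Against siNC, the shares called in either direction after IFNγ were 5.52% with siPDL1-1 and 2.91% with siPDL1-2. Unstimulated, they were 4.00% and 6.17%. In siNC cells the genes raised included the feedback inhibitor *SOCS1* (log2 difference 2.61), and the smallest log2 differences were those of the kinases *TYK2* (-0.20) and *JAK1* (0.05), which were not called. After IFNγ, siPDL1-1 raised 4 of the 12 above siNC. The largest differences were those of *USP18* (2.49), which restrains type I interferon signalling, and *SOCS1* (1.67), and *STAT2*, a subunit of ISGF3, was 403 ± 17.8 CPM against 133 ± 1.47 CPM (mean ± SD, n = 2, log2 difference 1.59, limma FDR = 1.57e-08). The lowest value there was that of *IFNGR2* (-0.06), which was not called. With siPDL1-2 limma, edgeR and DESeq2 each called 0 of the 12, and 4 had an unadjusted p under 0.05. With 2.91% of all genes called, a list of 12 need not hold a call, so the 0 is no result about this list.

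Among the target genes of the members, those of ISGF3 were higher with siPDL1-1 than with siNC. Of 16 ISGF3 target genes, IFNγ raised 15 in each siRNA group, with median log2 differences of 2.48 in siNC, 5.15 in siPDL1-1 and 2.79 in siPDL1-2 cells. The list holds genes known to be driven by ISGF3, so the count raised by IFNγ follows largely from how it was chosen. After IFNγ, siPDL1-1 raised 15 of the 16 above siNC, with a median log2 difference of 3.36 against -0.0060 for all genes, from *MX2* (4.79) and *OAS2* (4.34) down to *USP18* (2.49). The exception was *MX1* at -0.07, which was 3.02 to 5.43 CPM in all 12 libraries. With siPDL1-2, 2 of the 16 were higher, *IFI27* (0.79) and *IFI6* (0.76), and the lowest values were those of *IFIT1* (-0.57) and *OASL* (-0.50), which were not called. In unstimulated cells siPDL1-1 raised 12 of the 16, with a median of 0.96. Under siPDL1-2, unstimulated cells gave 0 of 16 calls by limma, edgeR and DESeq2, with 5 at an unadjusted p under 0.05. There 6.17% of all genes were called, so a list of 16 need not hold a call.

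**Figure D4:**
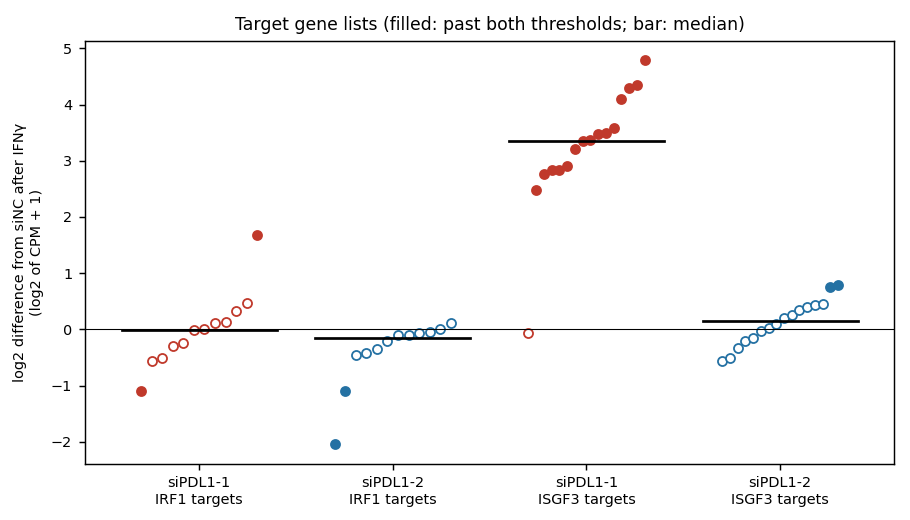
Log2 difference from siNC after IFNγ for 12 IRF1 target genes and 16 ISGF3 target genes with each siRNA targeting *PD-L1*, on log2(CPM + 1). Each point is a gene, filled where both thresholds were passed, and bars are medians. The ISGF3 targets with siPDL1-1 lie at 2.49 or higher apart from *MX1*, while the IRF1 targets lie on both sides of 0 with either siRNA.

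The 12 IRF1 target genes were listed as known to be bound or driven by IRF1 after IFNγ. Their rise with IFNγ therefore follows largely from that choice. IFNγ raised all 12 in each siRNA group, with median log2 differences of 4.64, 4.50 and 4.56 in siNC, siPDL1-1 and siPDL1-2 cells. In siNC cells these ran from *IDO1* (8.80) and *CXCL10* (8.17) down to *SOCS1* (2.61) and *IL15* (2.22). After IFNγ, siPDL1-1 lowered *IDO1* (log2 difference -1.10) and raised *SOCS1* (1.67), and the next values on either side, *GBP2* (-0.55) and *NLRC5* (0.47), were not called. With siPDL1-2, *CXCL10* (-2.05) and *IDO1* (-1.09) were lower, and the highest values, *SOCS1* (0.11) and *IL18BP* (0.01), were not called. The medians of the list were -0.003 with siPDL1-1 and -0.16 with siPDL1-2. *SOCS1* and *USP18* also stand in the list of receptors, kinases and STAT proteins.

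The sensors and kinases that activate IRF3, IRF5 and IRF7 were measured by 14 tested genes of a list of 15. IFNγ raised 5 of them in siNC, 5 in siPDL1-1 and 4 in siPDL1-2 cells. In siNC cells these were led by *TLR3* (log2 difference 3.02) and *IFIH1* (2.64), sensors of double-stranded RNA, and the lowest were *IRAK1* (-0.20) and *TRAF3* (-0.12), which were not called. After IFNγ, siPDL1-1 raised 5 of the 14 above siNC. The RNA sensor RIG-I, listed as *DDX58*, was 3.03 higher on the log2 scale and *IFIH1* 1.86 higher, while *TRAF6* (-0.36) and the kinase *TBK1* (-0.18) were not called. With siPDL1-2 limma, edgeR and DESeq2 each called 0 of the 14, and 9 had an unadjusted p under 0.05. This 0 is again no result about the list, since 2.91% of all genes were called.

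Of 7 type I and type III interferon genes, whose products activate ISGF3, none exceeded 59 reads in any library. *IFNB1* had 18 and 26 reads (0.511 and 1.22 CPM) in the stimulated siPDL1-1 libraries and 0 to 2 reads in each of the other 10. *IFNL1* had 59 and 36 reads (1.67 and 1.69 CPM) there and 0 or 1 read elsewhere. *IFNL2* had 28 and 14 reads there and 0 elsewhere, and *IFNL3* 11 and 4 reads there and 0 or 1 elsewhere. *IFNB1*, *IFNL1* and *IFNL2* passed the filter only through that group, so their test adds nothing to the reads. *IFNE* did not share this pattern, with 4 and 0 reads in stimulated siPDL1-1, 6 and 12 in stimulated siNC and 2 and 7 in stimulated siPDL1-2 libraries, and 1 to 4 reads in each unstimulated library. *IFNA1* and *IFNK* had at most 1 read in any library. *BATF3* (0.91) and *ATF3* (0.70) were the 2 of 9 tested AP-1 and ETS partners that rose with IFNγ in siNC cells, where *JUND* (-0.43) and *FOS* (-0.38) were lowest. After IFNγ, *JUND* was the 1 gene of that list called with siPDL1-1 (0.59) and with siPDL1-2 (0.90). Of 6 IRF2-binding proteins and regulators of interferon regulatory factors, *TRIM21* (2.47) was the 1 that IFNγ raised in siNC cells, and *IRF2BP1* (-0.31) was among those not called. After IFNγ, *IRF2BPL* was higher with both siRNAs (0.70 each) and *TRIM21* with siPDL1-1 (0.66). In the stimulated siNC libraries *IRF2BPL* was 50.3 and 36.9 CPM and *JUND* 46.9 and 35.1 CPM. Every stimulated siPDL1 library lay above both for each gene. Both siRNAs share these siNC libraries, so the sizes of these differences depend in part on the lower siNC library.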

How the data were processed

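U251 cells were measured by poly(A) RNA-seq in 12 libraries, 2 per group, with groups from the sample labels. According to the paper, the libraries came from 2 independent experiments, so the 12 are not independent of one another. The main fit used group means only and had no term for the experiment. Per the methods, the authors trimmed and mapped the reads to GRCh38 in CLC genomics workbench, counted both strands and normalized there. The deposited signal values are normalized CPM, 1 column per library. In each library 100% of values were whole multiples of 1 read within 0.05, and 1 read was worth 0.0187 to 0.0586 CPM, which limits precision. Reads were recovered for filtering (edgeR's filterByExpr, minimum count 10, minimum total 15) and for count tests.

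The members, gene lists and tests were chosen with earlier results of these data known, and the lists were written from general knowledge. limma 3.58.1 (trend, robust) was fitted to log2(CPM + 1), with 17148 genes in the 6 stimulated libraries for siRNA effects after IFNγ and 17982 genes in all 12 for the rest, and p-values were adjusted by Benjamini-Hochberg over all genes tested. All 9 members are named, with the 3 most similar genes of each tested member and, per list and comparison, up to 2 of the largest and 2 of the smallest differences. *STAT2* after IFNγ was named after its values were seen, and the results of a few genes that this rule names are not reported here. Alternatives were edgeR 4.0.16 quasi-likelihood and DESeq2 1.42.0 Wald tests on recovered reads, plain CPM, DESeq2 size factors, a pseudocount of 0.1, no filter, a replicate block, other thresholds, other library sets and leaving out each replicate. The fits were checked on simulated data. R 4.3.3, Python 3.11.15, numpy 2.4.6, pandas 2.3.3 and matplotlib 3.10.9 were used. No duplicate libraries were found. Protein sequences were not used here.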

Additional observations from a re-analysis of the deposited data

Results flagged for a closer look

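The IFNγ effect on *BATF2* differed between siRNA groups, by the interaction contrast of limma over all 12 libraries. It was larger in siPDL1-1 than in siNC cells by 1.47 on the log2 scale (95% interval 1.17 to 1.77) and larger in siPDL1-1 than in siPDL1-2 cells by 1.28 (95% interval 0.98 to 1.58). The unstimulated libraries held 6 to 20 reads of *BATF2*, so these sizes depend on the pseudocount, and DESeq2 gave 2.25 and 1.72 on the recovered reads. The cause was not tested.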

How the results depend on the processing

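Over 12 comparisons, 46 member differences (those with IFNγ and others at FDR < 0.05) were followed under 676 alternative settings, of which 646 kept their direction and their side of the thresholds. The other 38 member differences, none of them called, changed sign in 29 of 584 settings and passed the thresholds in 0. The IFNγ calls of *IRF1*, *IRF2*, *IRF9* and *BATF2* in the 3 siRNA groups, and that of *IRF3* in siPDL1-2 cells, kept both under each alternative. Without the fold change threshold, the number of members called went from 0 to 2 for siPDL1-2 against siNC after IFNγ (*IRF1*, *IRF2*) and unstimulated (*IRF1*, *IRF9*), from 1 to 2 between the siRNAs after IFNγ (*IRF9*, *BATF2*), from 0 to 1 between them unstimulated (*IRF9*), from 0 to 2 for the IFNγ effect of siPDL1-2 minus siNC (*IRF2*, *IRF5*) and from 1 to 2 for that of siPDL1-1 minus siPDL1-2 (*IRF2*, *BATF2*). The effect of siPDL1-2 minus siNC had 1 member called (*IRF5*) with edgeR, DESeq2, plain CPM, DESeq2 size factors and a pseudocount of 0.1, and 0 to 2 when a replicate was left out (2 without the second unstimulated siNC library, 1 without the first stimulated siNC library). That of siPDL1-1 minus siPDL1-2 had 2 (*IRF2*, *BATF2*) with edgeR, DESeq2 and a pseudocount of 0.1, and 1 to 2 when a replicate was left out. Leaving out a replicate gave 0 to 1 for siPDL1-2 against siNC unstimulated (1, *IRF1*, without the second unstimulated siNC library), 2 to 3 for siPDL1-1 against siNC after IFNγ (2 without the second stimulated siPDL1-1 library, *IRF1* lost), and 4 to 5 for IFNγ in siNC cells (*IRF3* added without the second stimulated siNC library). Among the 46, signs turned 4 times, in differences that were not called: *IRF5* with IFNγ in siPDL1-1 cells without the second unstimulated siPDL1-1 library (-0.0044, and 0.14 without the first), and *IRF7* with IFNγ in siPDL1-2 cells with plain CPM (-0.017), without the first unstimulated library (-0.017) and without the first stimulated library (-0.19, and 0.25 without the second). The causes were not tested. Over all genes, dropping the fold change threshold raised the calls from 1460 to 4901, 1236 to 4122 and 947 to 3080 for IFNγ in siNC, siPDL1-1 and siPDL1-2 cells, from 946 to 2692, 499 to 1659 and 362 to 830 for siPDL1-1, siPDL1-2 and their difference after IFNγ, from 720 to 3379, 1110 to 5107 and 783 to 4338 for the same unstimulated, and from 174 to 293, 1370 to 3067 and 876 to 2097 for the IFNγ effects. Leaving out a replicate gave 128 to 677 calls in place of 499 (165 and 128 without the first and second stimulated siPDL1-2 library), 206 to 382 in place of 362, 888 to 1663 in place of 1370 and 551 to 1399 in place of 876. With plain CPM, IFNγ in siNC cells gave 932 genes higher and 427 lower in place of 1200 and 260, and siPDL1-2 after IFNγ gave 395 and 154 in place of 309 and 190. With the replicate block the members called were 4, 4 and 5 for IFNγ, 3, 0 and 1 after IFNγ, 1, 0 and 0 unstimulated and 1, 0 and 1 for the IFNγ effects, the same as without it. The deviations of same-numbered libraries correlated at over 0.1 in 2 of 15 pairs of groups (r from -0.187 to 0.252). These correlations cannot show whether same-numbered libraries came from the same experiment. The GAS matches of *IRF1* and *IRF9* lie in the 250 bases before the start, where 6.57% of windows held the letters. With 2 libraries per group, the limma p-values measure the spread between replicate libraries. That spread was pooled over all groups in the fit and moderated over genes.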

Other observations

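Of the 9 members, *IRF7* had the widest error relative to its effects (standard error 0.209 on the log2 scale for the IFNγ effect, against 0.059 to 0.10 for the other 6 tested). Its replicate 2 was the higher library in each unstimulated group and the lower library in each stimulated group, by 0.224 to 1.02 CPM and by 1.14 to 1.17 CPM. The cause was not tested.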
